A study of Mus musculus with 2 samples.

Results

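The methionine cycle and one-carbon genes of mouse liver were described from 6 genes, Ahcy, Gnmt, Bhmt, Pemt, Shmt1 and Mat1a. They were taken from a list of 9 by asking for a probe set that the platform annotation assigns to that gene alone. The 6 genes have 10 such probe sets, out of 10833 on the array that name 1 gene, and make up 6 of 8251 named genes. Cbs, Cth and Mthfd1 had no such probe set and were not analysed here. The data are 2 single-colour arrays of commercial total RNA, titled liver, replicates 1 and 2. Strain, sex, age and the number of animals pooled were not given in the sources used here, and both arrays used the same catalogue item, so the spread between them may be technical only. There is 1 group, no control and no treatment, so no test between groups was possible.

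Methionine is joined to ATP to make S-adenosylmethionine, the cell's main methyl donor. Methyltransferases use it and leave S-adenosylhomocysteine, which is split to homocysteine. Homocysteine is either remethylated to methionine, with a methyl group from betaine or from folate, or passed into cysteine synthesis. The liver is the main site of methionine breakdown, and its glycine and phosphatidylethanolamine methyltransferases are large users of S-adenosylmethionine.

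The start-site regions of the measured members are shown first, so that the letters of their upstream regions can be compared. RefSeq windows of 250 bases before to 50 after the start were at hand for 5 of the 6 genes, in 6 windows because Pemt has a pair of them. Mat1a, the member of lowest signal, had none, and a link between these letters and signal was not tested. The windows of Gnmt, Bhmt, Ahcy and Shmt1 are printed 5′ to 3′ on the strand of the gene. Capitals mark exact matches, on either strand, to CCAAT, the CCAAT box, or to GGGCGG, the GC box, so ATTGG and CCGCCC are the reverse-strand forms.
Gnmt (GRCm38.p6, chr17:46729116-46729415, minus strand): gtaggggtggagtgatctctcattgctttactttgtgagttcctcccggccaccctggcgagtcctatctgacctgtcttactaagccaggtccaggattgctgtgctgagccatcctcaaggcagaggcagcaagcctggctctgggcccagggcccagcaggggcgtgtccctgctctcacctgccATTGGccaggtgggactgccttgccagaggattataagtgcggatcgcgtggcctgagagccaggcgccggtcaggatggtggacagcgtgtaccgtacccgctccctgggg
Bhmt (GRCm38.p6, chr13:93637709-93638008, minus strand): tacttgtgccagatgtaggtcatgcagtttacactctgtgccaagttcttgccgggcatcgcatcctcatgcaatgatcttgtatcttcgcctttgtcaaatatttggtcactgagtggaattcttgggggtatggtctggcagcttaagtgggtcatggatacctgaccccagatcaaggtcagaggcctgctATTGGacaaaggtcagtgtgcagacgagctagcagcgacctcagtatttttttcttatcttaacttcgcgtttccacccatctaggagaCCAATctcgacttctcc
Ahcy (GRCm38.p6, chr2:155074448-155074747, minus strand): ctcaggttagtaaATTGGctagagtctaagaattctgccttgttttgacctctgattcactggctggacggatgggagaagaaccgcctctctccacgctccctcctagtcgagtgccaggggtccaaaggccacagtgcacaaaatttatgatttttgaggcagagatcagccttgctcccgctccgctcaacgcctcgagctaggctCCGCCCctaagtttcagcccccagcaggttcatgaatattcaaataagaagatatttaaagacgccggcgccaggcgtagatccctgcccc
Shmt1 (GRCm38.p6, chr11:60811216-60811515, minus strand): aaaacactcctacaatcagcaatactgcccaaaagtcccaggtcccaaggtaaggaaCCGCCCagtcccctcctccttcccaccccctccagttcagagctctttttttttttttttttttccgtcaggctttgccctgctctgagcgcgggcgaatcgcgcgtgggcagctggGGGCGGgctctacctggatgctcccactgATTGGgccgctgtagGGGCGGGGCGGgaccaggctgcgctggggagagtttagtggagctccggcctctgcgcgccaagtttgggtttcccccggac

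A CCAAT match was present in the windows of Gnmt, Bhmt, Ahcy and Shmt1 and in 1 of the 2 windows of Pemt, against 37.4% of all 32851 windows in the table. Counted from the start site, the reverse-strand match began at -62 in Gnmt, -56 in Bhmt and -47 in Shmt1, but at -237 in Ahcy and -248 in Pemt. Bhmt had a second match, on the gene's own strand, at position 34 after the start. A GC box was found in Ahcy, once, and in Shmt1, 4 times, the last pair overlapping, against 35.7% of all windows. None of the 6 windows held TATAAA (13.6% of all windows), the HNF1 motif GTTAAT (7.1%) or the FOXA core TGTTTAC (3.65%). Only exact matches were counted, so near forms, such as TATAAG in the Gnmt window, were not. CpG pairs numbered 17 in Shmt1, 13 in Ahcy, 11 in Gnmt, 8 in Bhmt and 3 and 2 in the 2 Pemt windows, beside a median of 7 and quartiles of 3 and 20 over all windows. A match to these short motifs describes the letters and is not a measured binding site. The array values say nothing of which window a transcript came from.

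As a background, the 95th percentile of 101 genes typical of muscle, retina, testis or brain was taken on each array, which was 488.4 for replicate 1 and 588.5 for replicate 2. Above it on both arrays were 5 of the 6 members, against 26.1% of all named genes. The median percentile of the members among all named genes was 98.8, where the median gene stands at 50. A percentile places a gene within the array's signal. Probe sets bind with different strength, so neither signals nor percentiles rank the amounts of different transcripts. In a whole tissue, fewer cells of a type and less RNA per cell cannot be told apart.

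The tissue label was checked, because the titles name liver and the source field names spleen. All 7 hepatocyte markers were above background on both arrays, among them Alb, albumin (64626 and 65800 on replicates 1 and 2), and, as the lowest, Ttr, the thyroid hormone carrier transthyretin (5372 and 5099). None of 7 measured lymphocyte and spleen markers and none of 5 kidney markers was above it. The lymphocyte and spleen count was 1 without suffixed sets, with the sets of each gene averaged and with the background at the 90th percentile. The highest were Cd79a, a B cell receptor chain (450.3 and 333.4), and Kap, an androgen-regulated kidney protein (86.9 and 86.7), and the lowest were the T cell co-receptor gene Cd8a (22.2 and 15.4) and Umod, of the kidney tubule (17.5 and 21.5). The summed signal of the lymphocyte and spleen markers was 856.9 and 941.1, and that of the kidney markers 358.4 and 283.2. Of 6 Kupffer cell markers 4 were above background, with C1qc, a complement component (2541 and 2986), at the top, while the macrophage receptor gene Adgre1 at the bottom gave 192.7 and 251.7. Their summed signal was 9526 and 9532, and their part in the members' signals was not tested.

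Ahcy, adenosylhomocysteinase, which splits S-adenosylhomocysteine into homocysteine and adenosine, was the brightest member. Its brightest probe set, 96025_g_at, of suffix g, gave 32333 on replicate 1 and 34987 on replicate 2 (mean 33660 ± 1877, SD, n = 2). By this set Ahcy held rank 21 of the 8251 genes. The set 96024_at gave 26858 and 27556, and 96026_at gave 1767 and 1853. All 3 sets were above background on both arrays.

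Gnmt, glycine N-methyltransferase, passes methyl groups from S-adenosylmethionine to glycine. Its single probe set gave 21431 and 22827 (22129 ± 986.9, SD, n = 2), which is 43.9 and 38.8 times the background of the 2 arrays. Bhmt, betaine-homocysteine methyltransferase, remakes methionine with a methyl group from betaine. Its set 94049_at gave 19532 and 22729 (21131 ± 2261, SD, n = 2), whereas its set 161404_at gave 745.1 and 732.2. Both Bhmt sets were above background on both arrays. The percentiles of Gnmt (99.50) and Bhmt (99.47) were closer to each other than those of Bhmt on the 2 arrays (99.42 and 99.50).

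Pemt, phosphatidylethanolamine N-methyltransferase, makes phosphatidylcholine by adding methyl groups from S-adenosylmethionine. Its single probe set gave 9160 and 9039 (9100 ± 85.6, SD, n = 2), at percentile 98.13. It was the member with the smallest difference between the arrays.

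Shmt1, the cytosolic serine hydroxymethyltransferase, moves a one-carbon unit from serine to tetrahydrofolate. The set 98459_at gave 1783 and 1723 (1753 ± 42.4, SD, n = 2), at percentile 90.13 and 3.65 and 2.93 times the background. The other set, 104700_at, gave 107.4 and 38.6 and was not above background on either array. The sets of Shmt1 thus lay on opposite sides of the background. When a gene was read as the mean of its sets, Shmt1 was not above background on both arrays and stood at percentile 67.28, and the count of members above background was 4.

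Mat1a encodes the methionine adenosyltransferase of adult hepatocytes, which makes S-adenosylmethionine. Its single probe set, 92864_at, gave 249.7 on replicate 1 and 212.8 on replicate 2 (231.3 ± 26.1, SD, n = 2). Both values are under the background, at 0.511 and 0.362 of it, and near the middle of the array, at percentile 51.09. Mat1a is the exception among the members, and a signal below the background does not show that a transcript is missing. The probe sequences were not used here, so how well this set detects the transcript was not tested.

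**Figure D1:**
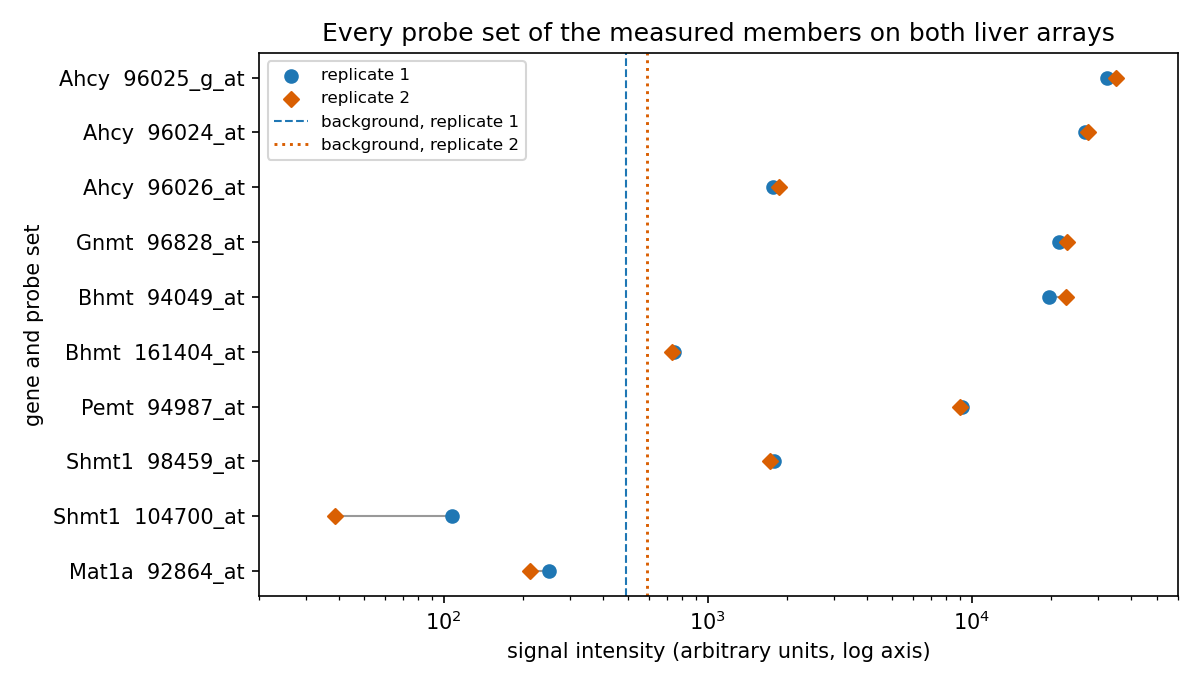
Signal intensity (log axis) of the 10 probe sets of the 6 measured members, circles for replicate 1 and diamonds for replicate 2, with the background of each array as vertical lines at 488.4 and 588.5. Points of the 2 arrays nearly coincide except for the dim Shmt1 set (107.4 and 38.6), and the sets of Ahcy, Bhmt and Shmt1 lie well apart within a gene.

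The order of the members by signal was the same on both arrays: Ahcy, Gnmt, Bhmt, Pemt, Shmt1, Mat1a. On replicate 1 they ranked 22, 44, 48, 153, 789 and 3938 among the 8251 genes, and on replicate 2 they ranked 20, 41, 42, 158, 838 and 4191. The signals of Gnmt and Bhmt overlapped between the arrays, and those of the other neighbours in this order did not. This is an order of probe set signals, not of transcripts.

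The arrays were then compared gene by gene, as the log2 signal of replicate 2 minus that of replicate 1, after subtracting the median difference of the brighter 50% of probe sets (-0.0058), which sets the arrays level. No member differed by over 2-fold, and none by over 1.5-fold. Of the 4818 named genes in that brighter 50%, 1.97% differed by over 2-fold, so the absence of such members is near that share. The difference was 0.22 for Bhmt, 0.12 for Ahcy, 0.10 for Gnmt, -0.01 for Pemt, -0.04 for Shmt1 and -0.22 for Mat1a. Without suffixed sets that of Ahcy was 0.04. The spread was taken in 10 bins of equal number, ordered by signal. In the brightest bin, which holds all members but Mat1a, the SD of the difference over probe sets was 0.18, and 0.161% of probe sets passed 2-fold. Bhmt lay at 1.28 of these SDs and the other members of that bin lay within 1 SD. In the bin that holds Mat1a the SD was 0.52, so its difference of -0.22 was also within it. With 1 array on each side, none of these differences has a replicate check.

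Sets of 1 gene are made of different probes, and the cause of the gaps in level between them was not tested. The dim set of Shmt1 differed 2.77-fold between the arrays, in a bin of signal where the SD of the log2 difference was 0.99 and 29.6% of probe sets passed 2-fold. The other 9 sets of the members differed by at most 1.17-fold.

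**Figure D2:**
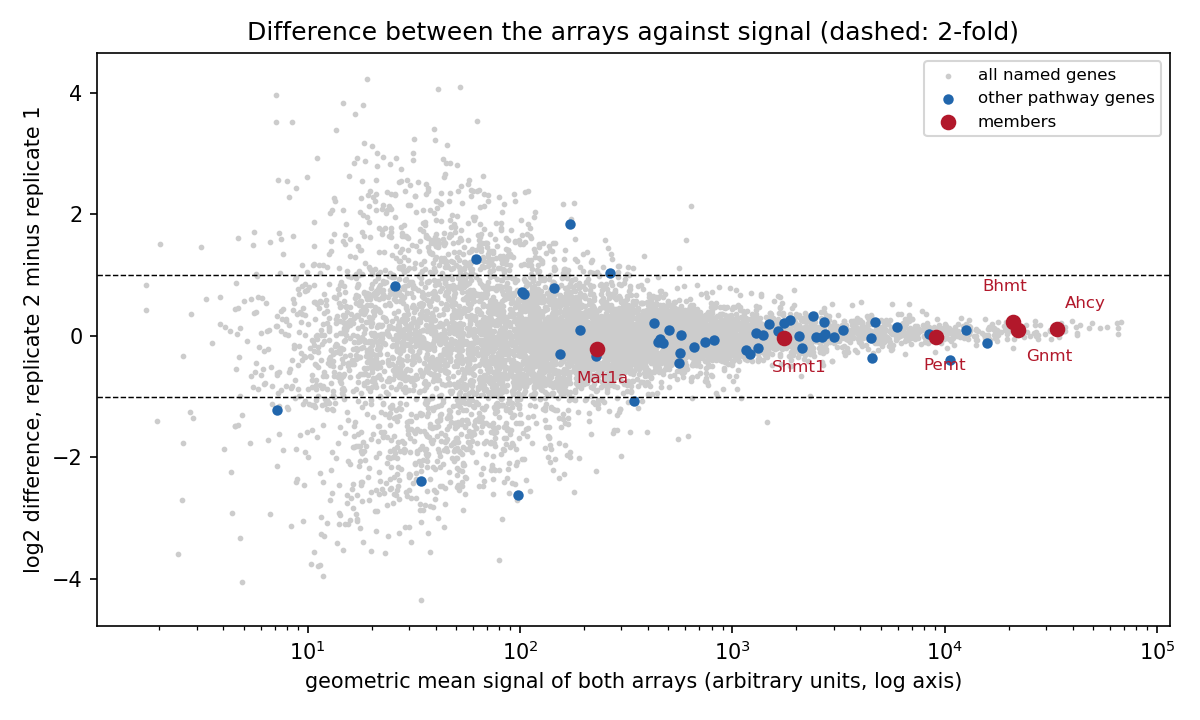
Log2 difference between the arrays (replicate 2 minus replicate 1, after the median shift) against the geometric mean signal (log axis), with all 8251 named genes in grey, the other pathway genes in blue and the 6 members in red. Dashed lines mark 2-fold, which no member reaches, and the spread narrows toward the bright end, where 5 members lie.

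Other genes around the cycle were read from 8 lists. Of their 80 genes 51 had a single-gene probe set, and 29 of these were above background on both arrays (56.9%), 5 on 1 array and 17 on neither, beside 26.1% of all named genes. Their median percentile was 85.7. The lists were chosen with earlier results of these arrays known, and the counts describe them only.

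Among other enzymes of methionine and S-adenosylmethionine, 4 of 5 were above background, and 2 of 5 when a gene was read as the mean of its sets. Adk, adenosine kinase, which removes the adenosine that Ahcy releases, gave 12200 and 9258, from a probe set of suffix f. Its other sets gave 78.6 and 46.5, and 103.5 and 29.9, so the sets of Adk lay on both sides of the background as those of Shmt1 did. Ahcyl1, an Ahcy-like protein, gave 3029 and 2977. Bhmt2, which methylates homocysteine with S-methylmethionine, gave 2062 and 2040. Mat2b, a regulatory subunit of the Mat2a form of methionine adenosyltransferase, gave 708.2 and 617.5 in one set and 141.1 and 145.2 in the other. Mtr, methionine synthase, which remethylates homocysteine with folate, gave 19.4 and 34.1 and was the exception. As for Mat1a, how well its single probe set detects the transcript was not tested. Mat2a was not analysed here.

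All 4 measured genes of choline and betaine breakdown, which take betaine onward from the Bhmt step or supply it, exceeded the background, and their median percentile was 94.8. Aldh7a1, which can oxidise betaine aldehyde, gave 8366 and 8487 in its brightest set, of suffix s. It gave 7639 and 7429 in another set and 38.5 and 12.9 in the last. Dmgdh and Sardh, the dehydrogenases of dimethylglycine and sarcosine, gave 5162 and 3973, and 2163 and 2686. Sarcosine is also the product of Gnmt. Pipox, a peroxisomal sarcosine oxidase, gave 2710 and 2765.

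In the folate list 4 of 11 genes exceeded the background, and their median percentile was 67.5. They were Fpgs, which adds glutamates to folate (2660 and 2621), and Gcsh, Dld and Gldc, proteins of the glycine cleavage system (1719 and 2050, 1391 and 1589, 1345 and 1091). Shmt2, the mitochondrial counterpart of Shmt1, gave 500.8 and 237.4, above background on replicate 1 and not on replicate 2, from a probe set of suffix i. Mthfd2, a mitochondrial folate enzyme abundant in dividing cells, gave 244.2 and 39.4 and was the lowest of the list by mean log2 signal, though not on replicate 1 alone. Gldc and Shmt2 were named to complete the count and the pair with Shmt1, after their values were seen.

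Phosphatidylcholine is also made from choline, the route alongside Pemt. Of 5 measured genes listed for that route 2 were above background, Pcyt2 (5708 and 6257) and Chpt1, cholinephosphotransferase (1597 and 1679). The main substrate of Pcyt2 is phosphoethanolamine and not phosphocholine, so its signal does not speak for the choline route. Pcyt1a gave 395.8 and 457.5 in its brightest set, not above background on either array. The choline kinase gene Chka gave 462.6 and 427.6, and the choline transporter gene Slc44a1 gave 185.1 and 378.0. The count of this list was 4 of 5 with the background at the 90th percentile, and 4 of 5 without sets whose names carry a suffix letter (f, s, r, i or g), which Affymetrix gives to sets of less unique or irregular probes.

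Of 9 genes of cysteine use, glutathione and sulfide 8 exceeded the background, and their median percentile was 93.1. Cdo1, cysteine dioxygenase, gave 12206 and 13048. Tst, a sulfurtransferase, gave 4352 and 5069, and Ethe1, a persulfide dioxygenase, gave 3221 and 3410. Gss, glutathione synthetase, gave 1421 and 1238 in one set and 213.5 and 300.6 in the other, and Sqor, sulfide quinone oxidoreductase, 1634 and 1877 in one and 26.1 and 3.4 in the other. The exception was Got1, a transaminase that also acts on cysteine, at 11.0 and 4.7. How well its single probe set detects the transcript was not tested. The enzymes that lead from homocysteine to cysteine, Cbs and Cth, are members not analysed here.

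Of 11 S-adenosylmethionine-dependent methyltransferases 5 were above background on both arrays and 2, the protein arginine methyltransferase gene Carm1 and the maintenance DNA methyltransferase gene Dnmt1, on replicate 1 alone. The brightest were Inmt, which methylates indoles and thioethers (16413 and 15121), Gamt, which makes creatine (4581 and 4426), and the thiopurine methyltransferase Tpmt (2292 and 1996). Pcmt1, a protein repair methyltransferase, gave 835.8 and 798.0 in its brightest set, of suffix f, and was not above background in its 2 others. The lowest was the DNA methyltransferase Dnmt3a (78.4 and 14.9).

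Polyamine synthesis uses S-adenosylmethionine after decarboxylation. Of 3 measured genes, Sat1, which acetylates polyamines (1267 and 1307), and Srm, spermidine synthase (774.2 and 716.1), were above background. The value of Srm is from a probe set of suffix f. Odc1, ornithine decarboxylase (572.3 and 578.2), passed the background on replicate 1 alone. With the background at the 99th percentile the count was 1. Serine supplies the one-carbon unit that Shmt1 moves, and 0 of 3 measured genes of serine synthesis were above background on both arrays. Psph, the last enzyme of the route (625.3 and 509.9), passed it on replicate 1 alone. Phgdh, the first enzyme, gave 82.6 and 132.9, from a probe set of suffix r, and the aminotransferase gene Psat1 gave 40.0 and 96.0. That count was 1 on replicate 1 alone and in 3 of the other alternatives tried.

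Of the 51 pathway genes 7 differed by over 2-fold between the arrays, and 0 of these 7 were above background on both. Over all named genes 1157 of 8251 (14.0%) differed by over 2-fold, and 2 of those (0.0242% of all) were above background on both. That 14.0% is not a share at like signal, because 42 of the 51 pathway genes lay in the brighter 50%. In that brighter 50%, 1.97% of all named genes differed by over 2-fold, and among the 42 pathway genes Shmt2, Slc44a1 and Pnmt did. By each gene's brightest set, the 7 were Mthfd2, Dnmt3a, Got1 and Shmt2, lower on replicate 2, and Pnmt, Psat1 and Slc44a1, higher on it. The Pnmt set is of suffix i, and its other set gave 82.0 and 82.6. The other set of Mthfd2 gave 14.1 and 16.9, while that of Dnmt3a, 51.8 and 1.9, was also lower on replicate 2. Shmt2 was the one that passed the background on an array.

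**Figure D3:**
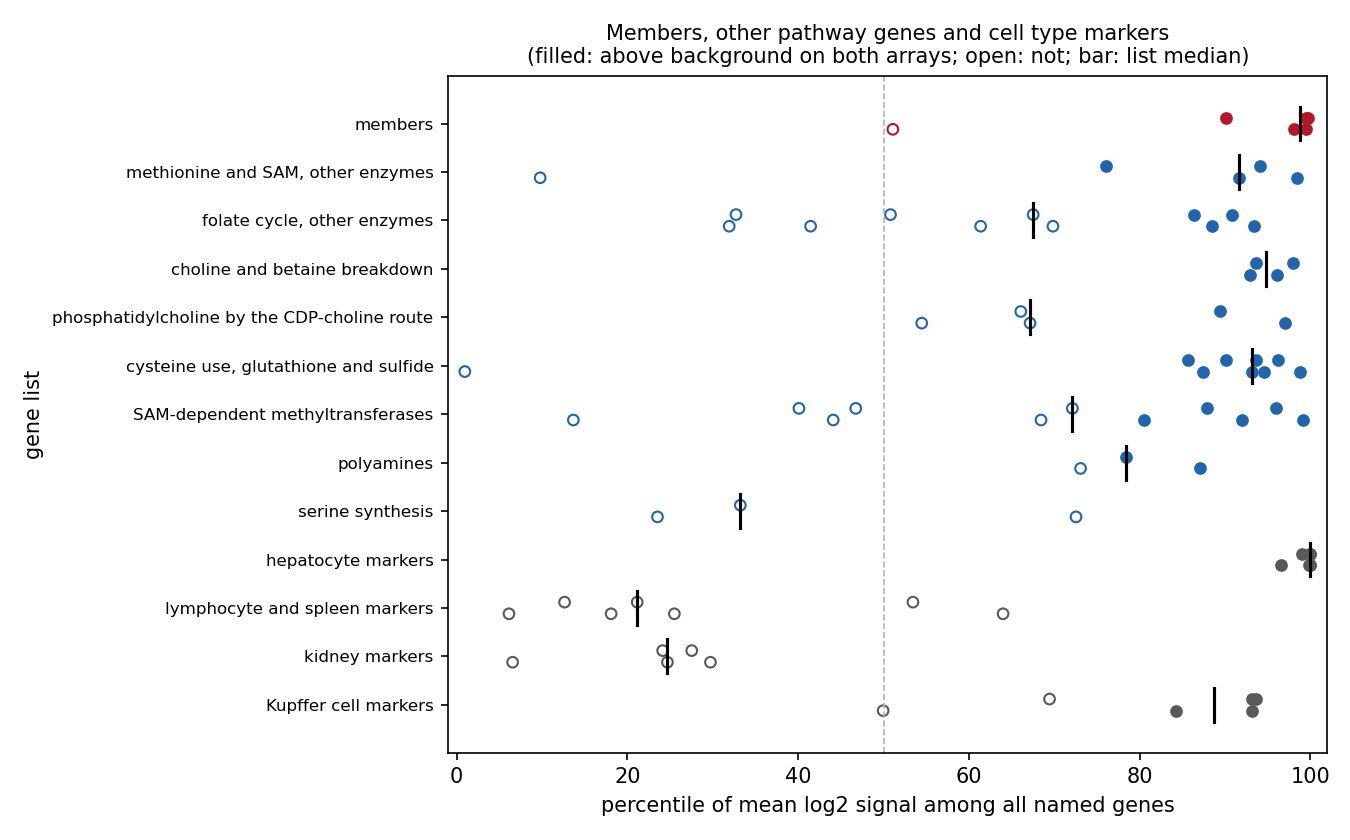
Percentile of each gene's mean log2 signal among the 8251 named genes, by list, with filled points above background on both arrays, open points not, and a bar at each list's median. The members' median is 98.8 with Mat1a alone near 51, the choline and betaine genes all lie above 92, and the serine synthesis genes have a median of 33.2.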

How the data were processed

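Deposited values were used for 2 arrays of liver RNA; per the labels, both came from purchased total RNA. The deposited values are signal intensity on a linear scale, 1 per Affymetrix probe set; scaling, summary method and software were not given in the sources used here. With 2% of values trimmed from either end, the array means were both 500.5, and medians were 163.2 and 157.7. Of 12488 probe sets, 16 had identical values. The number of arrays, 2, limits precision.

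Probe sets were named from the platform annotation (1 gene for 10833 non-control sets, several for 396, none for 1193); 10817 matched RefSeq by gene identifier and 0 symbols changed. A gene was read from its probe set of highest mean log2 signal. Percentiles, the background, the shifted log2 difference and the SD in 10 bins of signal are defined in the text; of the 101 background genes 4 exceeded the background on both arrays. No p-value was computed. Members and lists were chosen with earlier results of these data known. Named genes are all members, the 3 highest and the lowest of each pathway list, those above background and over 2-fold apart, those with sets on both sides of the background, and the highest and lowest of each marker list; other names are completions of counts. Steps were tested on simulated data. Alternatives were quantile normalization, no suffixed sets, means of sets, other backgrounds, single arrays, percentiles among probe sets, no shift, log2(value + 32) and a 1.5-fold limit. Software was matplotlib 3.10.9, scipy 1.17.1, pandas 2.3.3, numpy 2.4.6 and Python 3.11.15.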

Additional observations from a re-analysis of the deposited data

How the results depend on the processing

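The count of members above background was 5 of 6 in all alternatives tried except averaging the sets of each gene, where it was 4. No member passed 2-fold in the alternatives tried, and none passed 1.5-fold with the other settings kept. The median percentile of the members, 98.80, was 98.94 without suffixed sets, 97.36 with the sets of each gene averaged and 98.84 among all non-control probe sets, and it ran from 98.788 to 98.794 on each array alone. The spread between the arrays in this median was smaller than these steps. The pathway count of 29 ran from 26 (background at the 99th percentile) to 37 (90th percentile), and the marker count of 11 from 10 to 13. Of 84 counts of single lists 11 moved, either by over 1.5 times or from 0 to 1, and the cause was not tested. The lymphocyte and spleen list accounts for 3 of them, with a count of 1 instead of 0. The moved counts of the serine synthesis list were also 1 instead of 0. For Shmt1 the mean of its sets gave a difference of -0.76 between the arrays in place of -0.04. A reversal of sign was looked for only in members over 2-fold apart, and there were none, so this check could not find one. No paired analysis was possible because there is 1 group. Low signals, such as those of Mat1a and the dim Shmt1 set, are the least certain, since the correction of raw probe signals that came before these values was not repeated here.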
